A study of Mus musculus with 16 samples.

Results

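The 36 genes described here carry glucose into the heart muscle cell, break it down to lactate, store it as glycogen and divert it into the hexosamine and pentose phosphate branches. They were chosen by name as the transporters, enzymes and regulators of these steps that a heart expresses. Among them are several sets of paralogs that catalyse the same step. Earlier results of these data were known when this choice was made. A probe was assigned to a gene when the RefSeq transcript it is annotated to belongs to that gene, which gave 63 probes for the 36 genes, of 22911 gene symbols on the array. Of the 63 probes, 58 passed the filter on dim spots, which asked for a signal well above background on every array of some group, and all 36 genes were among the 13743 genes tested.

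Glucose enters a cardiomyocyte through GLUT1 and the insulin-responsive GLUT4, is phosphorylated by hexokinase and passes phosphofructokinase, the committed step of glycolysis, which fructose-2,6-bisphosphate activates. The adult heart lives mainly on fatty acids, and insulin acting through AKT moves GLUT4 to the cell surface and activates glycogen synthase. Muscle expresses its own isoforms of many glycolytic enzymes, such as PFKM, PGAM2 and ENO3, beside isoforms found in most tissues.

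RNA came from the heart apex of male C57Bl/6 mice, 4 in each of 4 groups, 1 array per mouse. All 16 mice carried a heterozygous MHC-mercremer transgene, a Cre recombinase that tamoxifen switches on and that the alpha-myosin heavy chain promoter restricts to cardiomyocytes. All received 5 daily injections of hydroxytamoxifen at 3 months of age (500 µg per day), and the hearts were taken 21 days after induction. Control mice carried no floxed allele, AKT1 KO mice were homozygous AKT1 flox/flox, AKT2 KO mice homozygous AKT2 flox/flox, and the AKT1+AKT2 DKO mice (DKO) homozygous for both. The sample titles nonetheless read "untreated". Only cardiomyocytes lose AKT in this model, so that the other cells of the apex keep both genes.

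A level is the log2 intensity of a probe minus the 75th percentile of its array, a change is the difference of 2 group means on this log2 scale, and a gene is called when limma's adjusted p is at or under 0.05. Levels of different probes are not compared. The 75th percentile lay between 492.1 and 809.4 intensity units, and 43.11% to 54% of the probes were well above background on an array. DKO replicate 3 stood apart: among 26 called members measured in all DKO hearts it lay farthest from control for 19 (73.1%), against 55.6% of all called genes. In AKT1 KO, replicate 1 was the low outlying heart for several members. The SD of a member between hearts had a median of 0.069 for control, 0.091 for AKT2 KO, 0.17 for AKT1 KO and 0.28 for DKO (n = 4 hearts each). The fit shares 1 spread per gene across the groups. The Akt2 probe read 4.91 ± 0.062 in control hearts, against 2.54 ± 0.092 with AKT2 deleted and 2.91 ± 0.10 with both deleted (SD, n = 4), while the Akt1 probe did not differ from control in AKT1 KO (log2 change 0.096) or DKO hearts (-0.022). The position of the Akt1 probe relative to the floxed exons is not given in the sources used here, so that it does not check the labels. Each group occupied its own array column on both slides, so that column and group cannot be told apart.

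Markers of some cell types were called in DKO against control hearts, where 45.7% of all genes tested were called. All 8 cardiomyocyte markers tested fell, their summed level being 3340 to 3867 times the array's 75th percentile in control and 2466 to 2981 in DKO hearts. All 6 fibroblast markers rose (177 to 189.1 in control, 274.4 to 315.7 in DKO), as did 3 of 6 macrophage markers (22.3 to 25.17 against 26.45 to 36.36). Of 6 endothelial markers 1 fell, Kdr. Of 5 smooth muscle and pericyte markers Tagln and Pdgfrb rose and Acta2 fell. Of the adipocyte markers Cfd rose and Lep fell, while Adipoq and Plin1 were too dim to be tested. The 2 neutrophil markers and the 2 red cell markers tested were not called. The skeletal muscle genes Myh1, Myh2, Myh4 and Actn3 were above background on none of the arrays, and of the other 2 of that list Tnni2 fell (-1.66, limma adjusted p = 3.21e-05) and Tnnt3 was not called (-0.23). In these bulk samples fewer cells of a type and less RNA per cell cannot be told apart, and the part of the cell markers in the changes below was not tested.

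Most of the 36 genes were called in DKO against control hearts, and none in either single knockout by the same rule. In DKO against control hearts 27 of the 36 members were called, 11 higher and 16 lower, where 45.7% of all genes tested were called, 24.5% higher and 21.2% lower. The same 27 passed an unadjusted p of 0.05, which 52.8% of all genes did. Of the 27, 12 had changed at least 2-fold, against 8.27% of all genes. The median size of the log2 change was 0.70 over the members and 0.32 over all genes, without regard to sign. The members were chosen with earlier results of these data known, so that these shares are not those of a list chosen blind. The 4 DKO hearts did not overlap the 4 control hearts for 27 members (11 above, 16 below), where 44.4% of all genes did not overlap. These were not the same 27 genes as those called. Gpi1 did not overlap but was not called, and Gfpt1 was called although its hearts overlapped. Without DKO replicate 3 the count was again 27 and 26 of the calls were shared. Eno1 was then no longer called and Pgk1, the phosphoglycerate kinase, was called lower (log2 change -0.29, limma adjusted p = 0.0136). With the replicate number as a block 25 members were called, Ldha and Pgd being lost. The counts without replicate 3 and with the block stand without the share of all genes called.

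**Figure D1:**
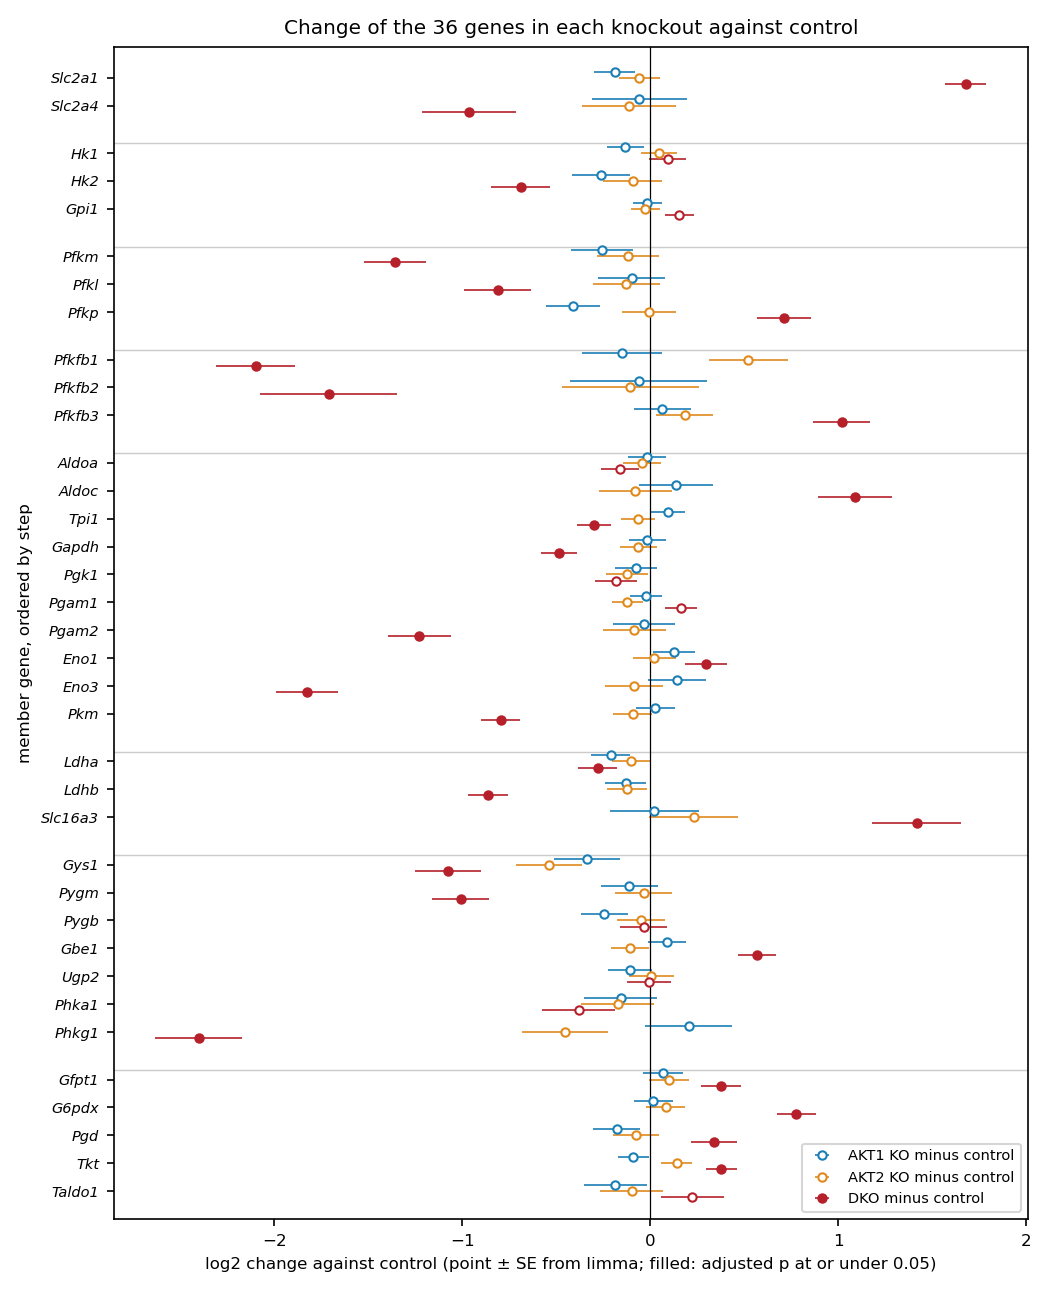
Change of each of the 36 genes against control on the log2 scale, with the standard error from limma, for AKT1 KO, AKT2 KO and DKO hearts (n = 4 per group, 3 for Eno3 in DKO), ordered by step from transport to the pentose phosphate branch. Filled points passed an adjusted p of 0.05: 27 for DKO and 0 for either single knockout.

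The 2 glucose transporters moved in opposite directions. Slc2a1 (NM_011400), which encodes the basal transporter GLUT1, read 1.20, 1.15, 1.16 and 1.18 in the control hearts. It read 2.87, 2.93, 2.67 and 2.92 in the DKO hearts, all far above the highest of the other 12 hearts. The change was 1.68 ± 0.11 (SE), or 3.20-fold (limma adjusted p = 5.37e-08, higher in 4 of 4 hearts). Slc2a1 had the smallest adjusted p of the 36 members in this comparison and was 1.74 without DKO replicate 3. In AKT1 KO hearts it read 0.59 to 1.22 and in AKT2 KO hearts 1.01 to 1.17, both ranges overlapping control.

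The 250 bases before the RefSeq start of Slc2a1 lie at chr4:119108495-119108744 on the + strand of GRCm38.p6. They are shown because this transporter had the clearest rise, with 2 GC boxes (GGGCGG or its reverse complement) and 1 match of ACGTG, the core of hypoxia response elements, in capitals.
Slc2a1: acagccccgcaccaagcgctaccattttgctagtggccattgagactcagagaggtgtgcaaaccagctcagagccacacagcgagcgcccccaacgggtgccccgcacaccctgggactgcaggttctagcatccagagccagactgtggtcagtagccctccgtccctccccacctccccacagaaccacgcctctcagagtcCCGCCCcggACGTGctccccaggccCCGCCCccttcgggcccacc

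Slc2a4, which encodes the insulin-responsive GLUT4, read 6.99, 6.86, 6.83 and 6.95 in control hearts. In DKO hearts it read 6.34, 6.19, 4.86 and 6.38, with replicate 3 far below the other 3, which also lay below all control hearts. The change was -0.97 ± 0.25 (SE; limma adjusted p = 0.00584) and -0.61 without replicate 3 (adjusted p = 0.000272). Within the second slide alone, where replicate 3 lies, it was not called (adjusted p = 0.0916). In AKT1 KO (6.52 to 7.04) and AKT2 KO hearts (6.70 to 6.84) the levels overlapped control.

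At the first phosphorylation, Hk2 fell and Hk1 did not pass the test. Hk2, the insulin-regulated muscle hexokinase, read 3.71, 3.51, 3.48 and 3.59 in control and 3.17, 3.05, 2.26 and 3.06 in DKO hearts. All DKO hearts lay below all control hearts, replicate 3 lowest. The change was -0.69 ± 0.16 (SE; limma adjusted p = 0.00234), and -0.48 without replicate 3. Hk1, the hexokinase of most tissues, changed by 0.091 (adjusted p = 0.467), and Gpi1, the glucose phosphate isomerase, by 0.15 (adjusted p = 0.116).

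All 3 phosphofructokinase genes were called in DKO hearts, the platelet isoform against the other 2, where 45.7% of all genes were called. Pfkm, the muscle isoform, read 7.21, 7.21, 7.06 and 7.16 in control and 6.08, 6.03, 5.15 and 5.95 in DKO hearts. Replicate 3 was the lowest and the others lay about a log2 unit below control. The change was -1.36 ± 0.17 (SE), or 2.56-fold lower (limma adjusted p = 1.70e-05), and -1.14 without replicate 3. Pfkl, the liver isoform, went from 1.90 to 2.01 in control to 0.47 to 1.48 in DKO hearts, a change of -0.81 ± 0.18 (SE; adjusted p = 0.00189).

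Pfkp, the platelet isoform, read 2.13, 2.18, 2.26 and 2.23 in control hearts and 2.82, 2.82, 3.33 and 2.66 in DKO hearts. All 4 DKO hearts lay above all 12 others. Its change was 0.71 ± 0.14 (SE; limma adjusted p = 0.00109), and a second kept probe for the gene gave 0.31 (adjusted p = 0.17 over all probes). In AKT1 KO hearts Pfkp read 1.42, 2.08, 1.88 and 1.76, below all control hearts, with a change of -0.41 ± 0.14 (SE) that did not pass the test (unadjusted p = 0.012, adjusted p = 0.382). The 250 bases before the start of Pfkp (chr13:6648772-6649021, - strand, GRCm38.p6) are shown because they hold 4 GC boxes, in capitals, a number that only the Gfpt1 window reached among the members.
Pfkp: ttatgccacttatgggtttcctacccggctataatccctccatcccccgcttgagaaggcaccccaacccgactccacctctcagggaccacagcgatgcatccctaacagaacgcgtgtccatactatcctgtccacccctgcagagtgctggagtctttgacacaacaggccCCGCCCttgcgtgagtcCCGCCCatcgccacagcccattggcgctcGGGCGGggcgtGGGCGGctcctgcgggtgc

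**Figure D2:**
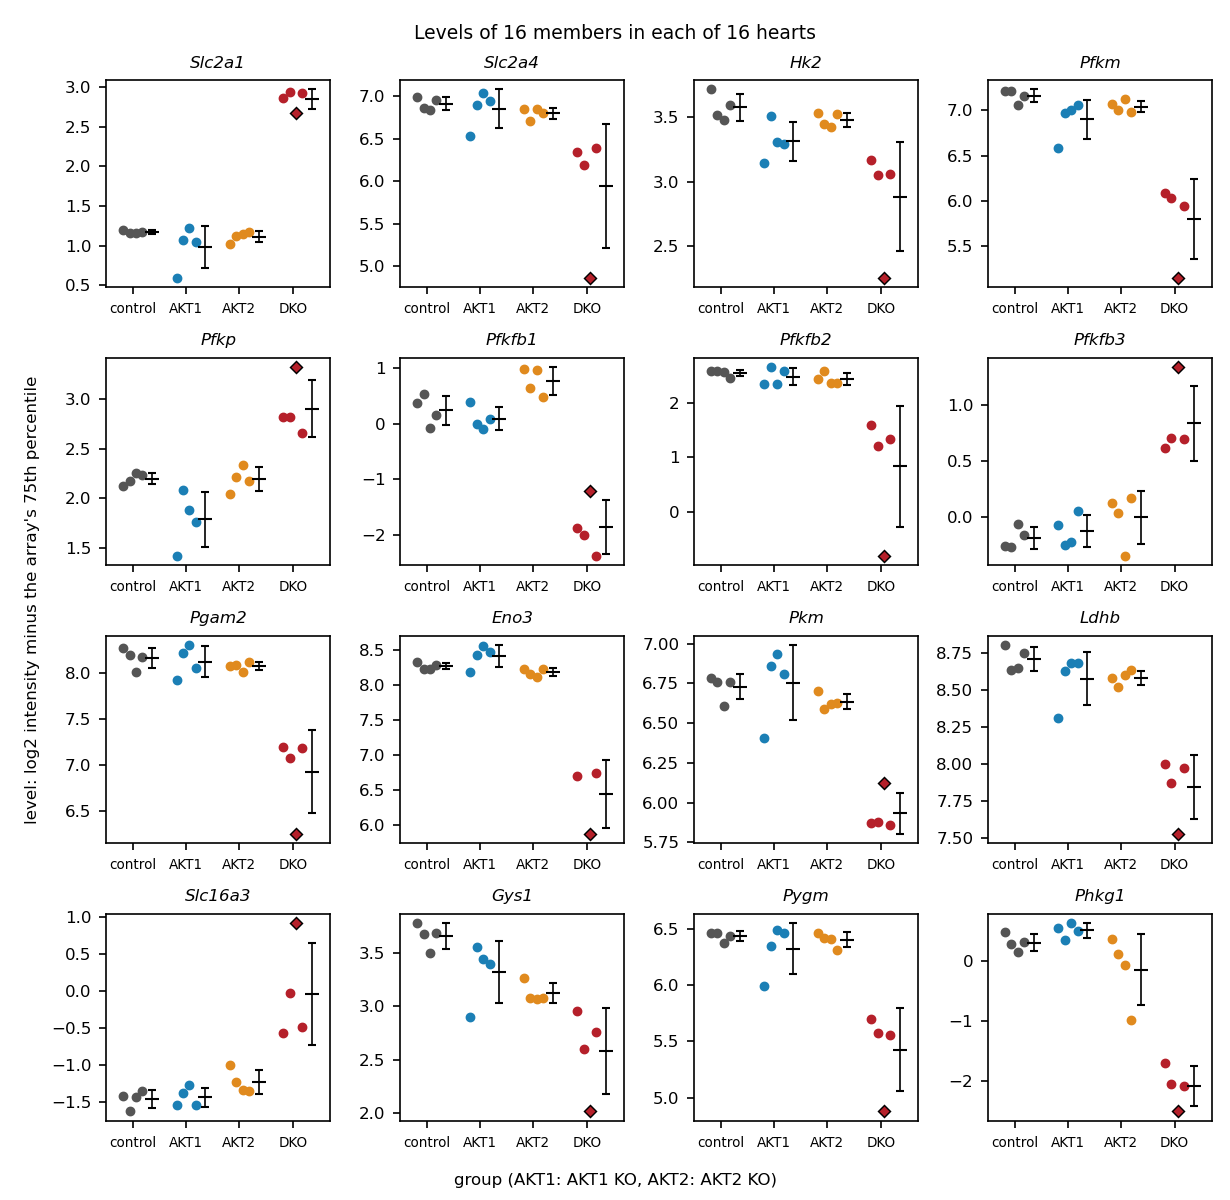
Levels of 16 members in each of the 16 hearts (log2 intensity minus the array's 75th percentile), by group, with mean and SD beside the points (n = 4, 3 for Eno3 in DKO). The diamond is DKO replicate 3, the lowest DKO heart for Slc2a4 (4.86), Hk2 (2.26), Pfkm (5.15) and Gys1 (2.01), and the highest for Pfkp (3.33) and Slc16a3 (0.91).

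The bifunctional enzymes that make and remove fructose-2,6-bisphosphate were split. Pfkfb1, the form first known from liver and skeletal muscle, read 0.36, 0.52, -0.074 and 0.16 in control hearts. In DKO hearts it read -1.87, -1.99, -1.20 and -2.37, with no overlap and with replicate 3 the closest to control. The change was -2.10 ± 0.21 (SE), or 4.29-fold lower (limma adjusted p = 2.72e-06), and -2.32 without replicate 3. In AKT2 KO hearts Pfkfb1 read 0.98, 0.63, 0.96 and 0.48, a change of 0.52 ± 0.21 (SE) that did not pass (unadjusted p = 0.0267, adjusted p = 1).

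Pfkfb2, the heart isoform, whose protein AKT phosphorylates, read 2.57, 2.58, 2.56 and 2.46 in control hearts. In DKO hearts it read 1.60, 1.20, -0.81 and 1.34. Replicate 3 stood more than 2 log2 units below the next DKO heart, and that next heart was still below every control heart. The change was -1.71 ± 0.36 (SE; limma adjusted p = 0.00154) with replicate 3 and -1.16 (adjusted p = 1.05e-06) without it. The 2 other kept probes for Pfkfb2 changed by -1.46 and -1.19.

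Pfkfb3, the inducible form, read -0.26, -0.26, -0.055 and -0.16 in control and 0.61, 0.70, 1.33 and 0.70 in DKO hearts. The DKO hearts lay above all others. The change was 1.02 ± 0.15 (SE), or 2.02-fold (limma adjusted p = 8.32e-05).

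Among the 10 genes from aldolase to pyruvate kinase, 7 were called in DKO hearts (70%, beside 45.7% of all genes), 2 higher and 5 lower. Eno3 and Pgam2, both muscle isoforms, had the largest falls. Eno3, the muscle enolase, read 8.33, 8.23, 8.24 and 8.29 in control hearts and 6.70, 5.88 and 6.75 in DKO replicates 1, 3 and 4, the spot of replicate 2 carrying an outlier flag and being left out. The 3 DKO hearts measured lay below all others, replicate 3 lowest. The change was -1.83 ± 0.17 (SE), or 3.55-fold lower (limma adjusted p = 1.73e-06).

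Pgam2, the muscle phosphoglycerate mutase, read 8.27, 8.19, 8.01 and 8.17 in control and 7.20, 7.07, 6.26 and 7.19 in DKO hearts, without overlap. The change was -1.23 ± 0.17 (SE; limma adjusted p = 3.97e-05) and -1.005 without replicate 3. The 250 bases before its start (chr11:5803797-5804046, - strand, GRCm38.p6) are shown because no other window of a member held both muscle motifs searched. Capitals mark CAGCTG, a form of E-box, and the MEF2 element.
Pgam2: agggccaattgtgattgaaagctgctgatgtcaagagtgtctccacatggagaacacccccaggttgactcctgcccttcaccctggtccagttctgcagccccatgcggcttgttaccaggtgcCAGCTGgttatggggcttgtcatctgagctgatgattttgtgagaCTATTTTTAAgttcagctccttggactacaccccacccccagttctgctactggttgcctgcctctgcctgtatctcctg

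Their counterparts of most tissues did otherwise. Eno1, the enolase of most tissues, read 5.23 to 5.30 in control hearts and 5.44 to 5.45 in 3 DKO hearts and 5.94 in replicate 3. The change of 0.30 ± 0.11 (SE) was called (limma adjusted p = 0.0455), but not without replicate 3 (0.17, adjusted p = 0.102), and under quantile normalization it was -0.099 (adjusted p = 0.252). Of 31 alternatives 17 lost the call without a change of sign. Among them were the authors' deposited values and leaving out any single control or AKT2 KO heart. A second Eno1 probe gave 0.62 (adjusted p = 0.00295 over all probes). Pgam1, the mutase of most tissues, changed by 0.16 ± 0.085 (SE; adjusted p = 0.134).

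Pkm, the pyruvate kinase of muscle and most other tissues, read 6.79, 6.76, 6.61 and 6.76 in control and 5.87, 5.88, 6.13 and 5.86 in DKO hearts. Here replicate 3 was the highest DKO heart, and none overlapped control. The change was -0.80 ± 0.10 (SE; limma adjusted p = 2.89e-05), and -1.22 under quantile normalization. Gapdh, the glyceraldehyde phosphate dehydrogenase that many studies use as a reference gene, went from 9.06 to 9.16 in control to 8.54 to 8.72 in DKO hearts. It changed by -0.49 ± 0.097 (SE; adjusted p = 0.000965), and the other 5 Gapdh probes by -0.35 to -0.87. In the authors' deposited values Gapdh changed by -0.19 and was not called (limma adjusted p = 0.0548). Tpi1, the triose phosphate isomerase, changed by -0.30 (adjusted p = 0.0142), and by -0.71 under quantile normalization.

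Of the aldolases, Aldoa, the muscle form, changed by -0.16 (limma adjusted p = 0.209). Aldoc, the brain form, was dim, with 3 of 4 control arrays and all DKO arrays well above background. It read -3.47, -3.41, -3.16 and -3.49 in control and -2.15, -2.34, -1.76 and -2.92 in DKO hearts. The DKO hearts did not overlap the control hearts, and the change was 1.09 ± 0.20 (SE; adjusted p = 0.00042). Pgk1 changed by -0.18 (adjusted p = 0.195), with replicate 3 (7.75) above the control range and the other 3 DKO hearts (7.24 to 7.39) below it.

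At the lactate end, Ldhb, the heart-type lactate dehydrogenase subunit, read 8.80, 8.63, 8.65 and 8.75 in control and 8.001, 7.87, 7.53 and 7.97 in DKO hearts. No DKO heart reached the control range, and the change was -0.86 ± 0.11 (SE; limma adjusted p = 1.88e-05). Ldha, the muscle-type subunit, changed by -0.28 ± 0.10 (SE; adjusted p = 0.0375), and was not called with the replicate number as a block (adjusted p = 0.053). The Ldha call was lost in 12 of 31 alternatives, among them leaving out any single control heart. A second Ldha probe gave -0.21 (limma adjusted p = 0.181 over all probes). Slc16a3, which encodes the lactate exporter MCT4, read -1.43, -1.63, -1.44 and -1.35 in control hearts. In DKO hearts it read -0.58, -0.031, 0.91 and -0.49, all above the control hearts and replicate 3 highest. The change was 1.42 ± 0.24 (SE), or 2.67-fold (adjusted p = 0.000242), and 1.10 without replicate 3. The 250 bases before its start (chr11:120948817-120949066, + strand, GRCm38.p6) are shown beside those of Slc2a1 as the other transporter that rose, with 1 GC box and 2 matches of ACGTG in capitals.
Slc16a3: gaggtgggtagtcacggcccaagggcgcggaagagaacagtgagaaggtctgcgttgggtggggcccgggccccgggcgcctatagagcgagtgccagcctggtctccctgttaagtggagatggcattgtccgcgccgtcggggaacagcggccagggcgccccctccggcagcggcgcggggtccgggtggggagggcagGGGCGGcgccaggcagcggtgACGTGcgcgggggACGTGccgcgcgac

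Of the 7 glycogen genes 3 fell and 1 rose, a share of 57.1% called beside 45.7% of all genes. Phkg1, the muscle catalytic subunit of phosphorylase kinase, read 0.49, 0.28, 0.16 and 0.33 in control and -1.70, -2.05, -2.51 and -2.09 in DKO hearts. This was the largest fall of the 36 members, -2.40 ± 0.23 (SE), or 5.29-fold (limma adjusted p = 1.73e-06), and 4 of 4 hearts lay below all others. In AKT2 KO hearts 1 of the 4 read -0.98 and the others -0.062 to 0.37, and the change of -0.45 was not called. Phka1, the muscle regulatory subunit of the same kinase, changed by -0.38 (adjusted p = 0.125) and by -0.11 without replicate 3.

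Pygm, the muscle glycogen phosphorylase, read 6.47, 6.47, 6.38 and 6.44 in control and 5.70, 5.58, 4.88 and 5.56 in DKO hearts. The 2 groups did not overlap, and the change was -1.01 ± 0.15 (SE; limma adjusted p = 9.07e-05). Pygb, the brain phosphorylase, changed by -0.036 (adjusted p = 0.838). The 250 bases before the start of Pygm (chr19:6384158-6384407, + strand, GRCm38.p6) are shown because they hold 2 CAGCTG motifs, more than any other window of a member, beside 1 match of ACGTG, all in capitals.
Pygm: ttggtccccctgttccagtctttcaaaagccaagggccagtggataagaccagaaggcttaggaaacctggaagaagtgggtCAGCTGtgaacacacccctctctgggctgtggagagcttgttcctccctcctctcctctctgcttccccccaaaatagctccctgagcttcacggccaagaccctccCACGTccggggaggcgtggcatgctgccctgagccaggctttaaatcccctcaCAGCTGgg

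Gys1, the muscle glycogen synthase, read 3.78, 3.68, 3.50 and 3.68 in control and 2.95, 2.60, 2.01 and 2.76 in DKO hearts. All DKO hearts lay below control, and the change was -1.08 ± 0.17 (SE; limma adjusted p = 0.000179). It was the member with the largest fall in AKT2 KO hearts, where it read 3.26, 3.08, 3.07 and 3.08, below every control heart. That change of -0.54 ± 0.17 (SE) was not called in the fit of all groups (unadjusted p = 0.00786, adjusted p = 1). It was called when only the groups compared were fitted (adjusted p = 0.0324) and with array quality weights (adjusted p = 0.00734). Gys1 lies on chromosome 7, as does Akt2, and its nearest annotated neighbours are Lhb, Ruvbl2, Ftl1 and Bax. Ftl1 fell by 1.001 in AKT2 KO hearts (adjusted p = 0.00566). Its difference from control in DKO hearts, -0.086, did not pass the test (adjusted p = 0.655). Nor did those of Lhb (-0.091), Ruvbl2 (-0.010) and Bax (-0.076) in AKT2 KO hearts (adjusted p = 1 each). Whether the position of Gys1 has a part in its change was not tested.

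Gbe1, the glycogen branching enzyme, was the glycogen gene that rose, from 2.94 to 3.101 in control to 3.44 to 3.85 in DKO hearts. Its change was 0.57 ± 0.10 (SE; limma adjusted p = 0.000388), and a second probe gave 0.53. Ugp2, which makes UDP-glucose for glycogen synthesis, changed by -0.0076 (adjusted p = 0.965).

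In the side branches 4 of 5 genes rose and none fell, where 24.5% of all genes rose and 21.2% fell. G6pdx, which opens the pentose phosphate pathway, read 0.69, 0.78, 0.67 and 0.64 in control and 1.34, 1.43, 1.82 and 1.28 in DKO hearts. The DKO hearts lay above all others, and the change was 0.77 ± 0.10 (SE), or 1.71-fold (limma adjusted p = 3.80e-05). Tkt, the transketolase, changed by 0.38 ± 0.082 (SE; adjusted p = 0.00181). Gfpt1, the entry enzyme of hexosamine synthesis, read 1.44, 1.40, 0.90 and 1.46 in DKO hearts against 0.92 to 0.94 in control. Replicate 3 lay below control and the other 3 above, and the change was 0.37 (adjusted p = 0.0106) with it and 0.51 without it. Pgd, a later enzyme of the pentose branch, changed by 0.34 (adjusted p = 0.0373). That value fell to 0.18 without replicate 3 (adjusted p = 0.046), and Pgd was not called with the replicate block (adjusted p = 0.0527). The Pgd call was lost in 9 of 31 alternatives. Taldo1, the transaldolase, differed by 0.22 (adjusted p = 0.295), a value that 1 heart carried, being -0.011 without replicate 3 and -0.17 under quantile normalization.

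Paralogs of the same step could be compared within each heart, by subtracting the log2 level of one probe from that of the other and testing whether this difference changed from control. This was done for 11 pairs by an exact permutation test, two-sided, over the 70 splits of 8 hearts (35 for Eno1 and Eno3), whose smallest p is 0.0286, with adjustment over the 11 pairs. In DKO hearts the difference changed for 10 of the 11 pairs (p = 0.0286 and adjusted p = 0.0314 each, exact permutation). The shifts were 2.64 for Slc2a1 minus Slc2a4, 2.07 for Pfkp minus Pfkm, 2.73 for Pfkfb3 minus Pfkfb2, 2.17 for Eno1 minus Eno3 and 1.39 for Pgam1 minus Pgam2. They were smaller for Aldoc minus Aldoa (1.25), Pygb minus Pygm (0.97), Ldha minus Ldhb (0.58) and Pfkl minus Pfkm (0.55). For Hk2 minus Hk1, where the muscle form comes first, the shift was -0.78.

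The 11th pair, Pfkfb1 minus Pfkfb2, changed by -0.39 (exact permutation p = 0.686), and the DKO hearts ran from -3.71 to -0.39 across a control range of -2.64 to -2.05. Without DKO replicate 3 that change was -1.16 (exact permutation p = 0.0286, adjusted p = 0.0314), so that 1 heart decides this value. Under quantile normalization the pair of Ldha and Ldhb was lost (0.33, exact permutation adjusted p = 0.189). When any 1 control heart was left out, Aldoc minus Aldoa was lost (adjusted p = 0.0698, exact permutation). Eno1 minus Eno3, with 3 DKO hearts measured, could not pass once a control heart or 1 of those 3 was left out, since the smallest exact p is then 0.1 or 0.0667. In AKT1 KO hearts none of the 11 pairs passed after adjustment, and 2 reached the smallest p, Slc2a1 minus Slc2a4 (-0.13) and Pfkl minus Pfkm (0.16), with an adjusted p of 0.157 by exact permutation. In AKT2 KO hearts the pair with the smallest p was Pfkfb1 minus Pfkfb2 (0.63, exact permutation adjusted p = 0.314). These adjusted p-values belong to pairs at the smallest p the test can give. After adjustment only a shift of most of the 11 pairs at once could pass, and the test does not decide whether fewer pairs moved.

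**Figure D3:**
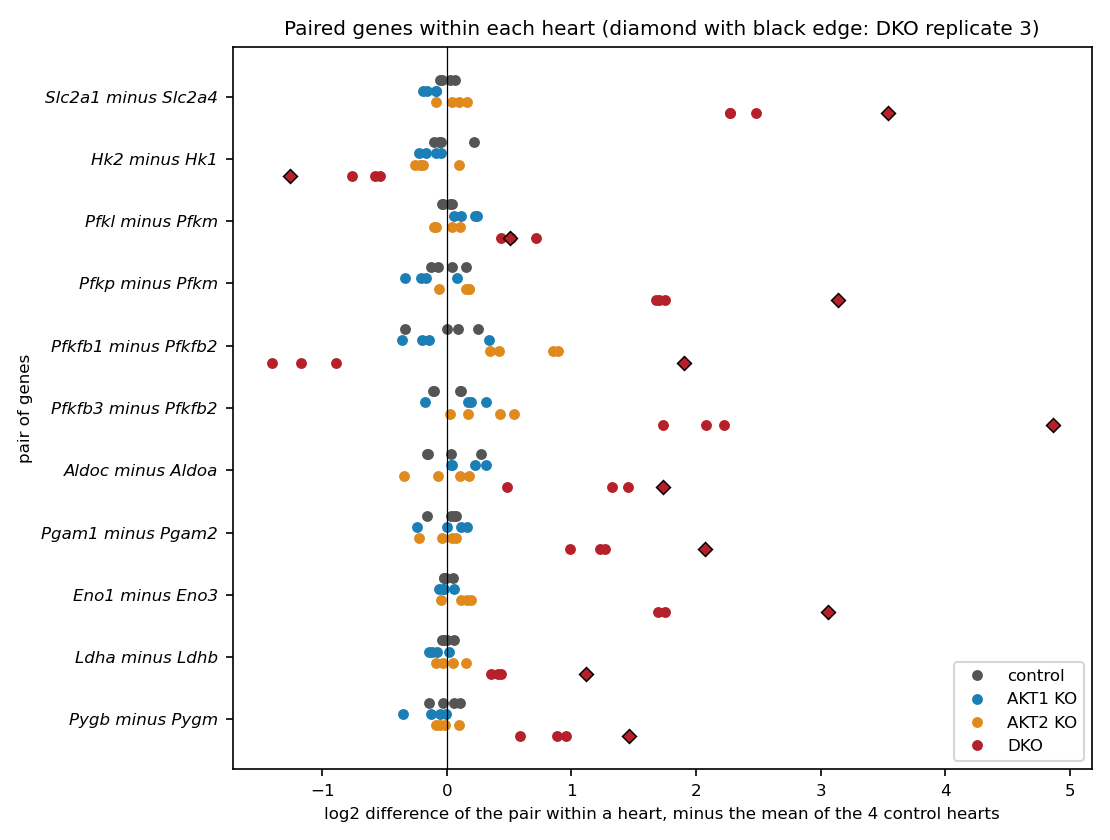
Difference of the log2 levels of 11 pairs of genes within each heart, relative to the mean of the 4 control hearts, coloured by group. The diamond is DKO replicate 3. The DKO hearts lie apart from control for 10 pairs, and on both sides of control for Pfkfb1 minus Pfkfb2.

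No member was called in either single knockout by limma's adjusted p. In AKT1 KO hearts 0 of 36 members were called, where 0.793% of all genes were (0.415% higher, 0.378% lower; 0.335% at least 2-fold), and 1 passed an unadjusted p of 0.05 (7.41% of all genes). That member was Pfkp. In AKT2 KO hearts 0 of 36 were called, where 0.131% of all genes were (0.0728% higher, 0.0582% lower; 0.0946% at least 2-fold), and 2 passed unadjusted (3.22% of all genes), Gys1 and Pfkfb1. Array quality weights, which give less weight to arrays far from their group, called 3 members in AKT1 KO hearts, Pfkp (-0.33), Tpi1 (0.18) and Eno1 (0.18), beside 5.98% of all genes. They called 1 in AKT2 KO hearts, Gys1, beside 0.677% of all genes. The hearts did not overlap control for 6 members in AKT1 KO and 4 in AKT2 KO, against 9.19% and 7.62% of all genes. Between AKT2 KO and AKT1 KO hearts 0 of 36 members were called by limma (0.895% of all genes, 0.415% higher and 0.48% lower, 0.422% at least 2-fold), and 4 passed unadjusted (7.34% of all genes), Pfkp, Pfkfb1, Phkg1 and Tkt.

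The DKO hearts were also set against each single knockout. Against AKT1 KO hearts 25 members were called, 10 higher and 15 lower, where 47% of all genes were called (26.7% higher, 20.3% lower). Against AKT2 KO hearts 25 were called, 10 higher and 15 lower, where 42.1% of all genes were (23.5% higher, 18.6% lower). The hearts did not overlap for 24 and 26 members, beside 36.9% and 38.8% of all genes. At least 2-fold were 9 members in each, beside 8.08% and 6.75% of all genes, and 29 and 28 passed unadjusted, beside 53.8% and 49.9%. Slc2a1 was 1.87 ± 0.11 higher than in AKT1 KO and 1.74 ± 0.11 higher than in AKT2 KO hearts (SE; limma adjusted p = 2.77e-08 and 5.39e-08). Pfkfb1 was -2.62 and Phkg1 -1.95 against AKT2 KO hearts. These comparisons and those with control share the DKO arrays.

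The departure from additivity is the DKO change minus the sum of the 2 single changes, and it was called for 18 of 36 members, 8 higher and 10 lower, where 26% of all genes were called (15.9% higher, 10.1% lower). It was at least 2-fold for 9 members (6.15% of all genes), and 24 passed unadjusted (38.3% of all genes). It was 1.93 ± 0.16 (SE) for Slc2a1 (limma adjusted p = 2.67e-06), -2.47 for Pfkfb1, -2.15 for Phkg1, -1.88 for Eno3 and 1.13 for Pfkp. Gys1, whose changes from control were -0.34 without AKT1, -0.54 without AKT2 and -1.08 without both, departed by -0.20 ± 0.25 and was not called (adjusted p = 0.58). Within the second slide alone 1 member was called for it.

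**Figure D4:**
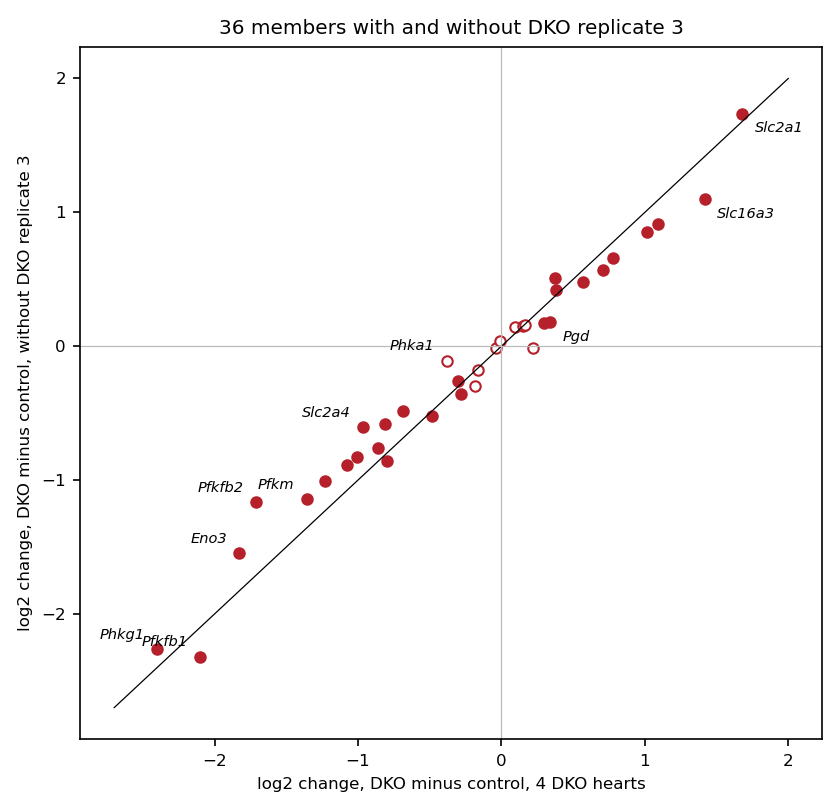
Log2 change from control to DKO of the 36 members with all 4 DKO hearts (horizontal) and without replicate 3 (vertical), with the line of equal values. Filled points are the 27 called with all hearts, and Slc2a4 (-0.97 and -0.61), Pfkfb2 (-1.71 and -1.16) and Pgd (0.34 and 0.18) lie off the line, while Slc2a1 (1.68 and 1.74) lies close to it.

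Further genes of these pathways were listed apart, 65 in number, of which 55 were expressed enough to be tested. In DKO hearts 22 of the 55 were called, 8 higher and 14 lower, a share of 40% beside 45.7% of all genes. Among those with the smallest adjusted p, the glycogen genes that fell were Ppp1r3c (-1.50, limma adjusted p = 0.000298) and Ppp1r3d (-0.85), which target phosphatase 1 to glycogen, and Phkb (-0.79), the beta subunit of phosphorylase kinase. Gyg, the primer of glycogen synthesis, rose by 0.59. Pgm3 of the hexosamine branch rose by 0.81, and Akr1b3, the aldose reductase, fell by 0.77. In AKT1 KO and AKT2 KO hearts 0 of the 55 were called (7 and 0 passed unadjusted).

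Across the promoters of the genes, 35 of the 36 members had a window in the RefSeq table, 54 windows in all. Some genes had several starts, whose windows overlapped in some cases and lay far apart in others. Each window held the 250 bases before a start, and motifs were searched on both strands. A GC box was found in 10 of the 11 genes that rose (90.9%), 7 of the 15 that fell (46.7%) and 6 of the 9 not called (66.7%), beside 35.4% of all 27025 genes with a window. CAGCTG was in 0 of the 11, 6 of the 15 (40%) and 3 of the 9 (33.3%), beside 14.7% of all genes. The pentamer ACGTG, which CACGTG contains, was in 4 of the 11 (36.4%), 6 of the 15 (40%) and 5 of the 9 (55.6%), beside 18.5% of all genes. CACGTG was in 1, 3 and 0 genes (6.86% of all genes), the forkhead core GTAAACA in 2, 0 and 0 (3.54%), the MEF2 element in 0, 2 and 0 (3.42%), TATAAA in 0, 1 and 0 (14.3%), and the ERR site TNAAGGTCA in none of the 35 (1.3%). Genes with more than 1 window had more chances of a match, and these counts describe letters, not bound sites. The 27025 genes include many not among the 13743 tested, whereas every member passed the filter on dim spots. The shares of members and of all genes therefore come from unlike sets.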

How the data were processed

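RNA of 16 mouse hearts was labelled with Cy3 and hybridised to 1-colour arrays on 2 slides of 8. Per the file headers, Agilent Feature Extraction 12.0.3.1 gave each spot a background-subtracted intensity, which was used as deposited. The authors' deposited values are on a log2 scale, in a table whose columns correlate at 0.9975 to 0.9999 with quantile-normalized intensities of the same arrays. The column medians run from -0.0245 to 0.0134, while the normalization and the centring of genes are not given in the sources used here, and these values served as an alternative. Others were background correction, normalization, filters, probe averaging, slide, row and replicate blocks, array weights and leaving out each heart.

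From the scanner intensities, log2 values minus each array's 75th percentile were computed. Control spots and 1510 spots with an outlier flag were left out. A probe was kept when well above background on the 4 arrays of at least 1 group, and the brightest kept probe stood for its gene. All 4 groups were fitted together with limma 3.58.1 (R 4.3.3, with version 1.17.8 of the data.table package; 12 residual degrees of freedom) in 7 comparisons, with Benjamini-Hochberg adjustment over 13743 genes and a threshold of 0.05. The script was tested on simulated data. Figures used matplotlib 3.10.9 in Python 3.11.15. The number of arrays limits the precision, and each array is a separate mouse.

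Replicate numbers come from the titles. Same-numbered arrays deviated together for AKT2 KO and control (correlations 0.141 to 0.365) and for DKO and control (0.14 to 0.316), where they share slide and row. For AKT1 KO and control only replicate 2 shares them (0.379), and the other replicates gave -0.216 to 0.131. A pairing by number and the position on the slides therefore cannot be told apart. The number was tried as a block.

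The text names all members, Akt1 and Akt2, and further pathway genes from the 8 with the smallest adjusted p, of which some are not reported here. Genes named for a single knockout, the neighbours of Gys1 and the windows printed were chosen after values were seen. The members and lists were chosen with earlier results of these data known. Promoter windows are RefSeq's on GRCm38.p6, and no coordinate was converted between builds.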

Additional observations from a re-analysis of the deposited data

Results flagged for a closer look

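In DKO replicate 3, 13 members stood outside the other 3 DKO hearts by Dixon's criterion at the 95% level. Its level was lower for Slc2a4 (4.864, others 6.19 to 6.384), Hk2 (2.256, others 3.047 to 3.166), Pfkm (5.15, others 5.946 to 6.083), Pfkl (0.4721, others 1.336 to 1.478), Pfkfb2 (-0.81, others 1.202 to 1.597), Tpi1 (6.165, others 6.318 to 6.329), Pgam2 (6.256, others 7.072 to 7.195) and Gfpt1 (0.8996, others 1.396 to 1.463). It was higher for Pfkfb3 (1.331, others 0.6119 to 0.7016), Eno1 (5.936, others 5.436 to 5.448), Pkm (6.126, others 5.86 to 5.877), Pgd (2.062, others 1.416 to 1.434) and Taldo1 (6.271, others 5.309 to 5.384).

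AKT1 KO replicate 1 was low for Tpi1 (6.372, others 6.769 to 6.796), Pgk1 (7.223, others 7.586 to 7.653), Ldhb (8.308, others 8.627 to 8.681) and Pgd (0.9317, others 1.098 to 1.124). AKT1 KO replicate 2 was high for Pgam1 (3.899, others 3.632 to 3.666), and AKT2 KO replicate 1 for Gys1 (3.264, others 3.069 to 3.08). Control replicate 4 was low for Pfkfb2 (2.455, others 2.564 to 2.575) and control replicate 3 for Pkm (6.611, others 6.76 to 6.786). In all, 21 of 143 groups of 4 hearts stood out this way, where chance gives about 1 in 20, or 7.15.

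The change in DKO hearts differed from the sum of the single-knockout changes for 18 members, by limma's interaction term with Benjamini-Hochberg adjustment. Higher than the sum were Slc2a1 (1.93, adjusted p = 2.67e-06), Slc16a3 (1.17, adjusted p = 0.0197), Pfkp (1.13, adjusted p = 0.00124), Aldoc (1.03, adjusted p = 0.0134), Pfkfb3 (0.77, adjusted p = 0.0153), G6pdx (0.68, adjusted p = 0.004), Pgd (0.59, adjusted p = 0.0216) and Gbe1 (0.59, adjusted p = 0.00811). Lower were Pfkfb1 (-2.47, adjusted p = 6.33e-05), Phkg1 (-2.15, adjusted p = 0.000353), Eno3 (-1.88, adjusted p = 7.98e-05), Pfkfb2 (-1.54, adjusted p = 0.0399) and Pgam2 (-1.11, adjusted p = 0.00352). Smaller departures below the sum were those of Pfkm (-0.98, adjusted p = 0.00736), Pygm (-0.86, adjusted p = 0.00864), Pkm (-0.73, adjusted p = 0.00255), Ldhb (-0.61, adjusted p = 0.00931) and Gapdh (-0.40, adjusted p = 0.0423). The call for Gapdh was lost in 20 of 30 alternatives, among them the replicate block (limma adjusted p = 0.0546; range over alternatives 0.000904 to 0.572). That for Pfkfb2 was lost in 14 of 30, among them leaving out any 1 control, AKT1 KO or AKT2 KO heart (range 0.000166 to 0.226).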

How the results depend on the processing

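Of the 27 members called in DKO against control hearts, 15 were called under every alternative run and 6 were lost only within a slide. Within the second slide alone, with 2 hearts per group, the counts fell to 15 for DKO against control, 14 against AKT1 KO, 12 against AKT2 KO and 1 for the departure from additivity, whereas the first slide alone gave 26 for DKO against control. The counts by slide, by left-out heart, with the replicate block and from only the groups compared stand without the share of all genes called. They do not tell a change among the members from one among all genes. Array quality weights called 3 members in AKT1 KO (5.98% of all genes), 1 in AKT2 KO (Gys1; 0.677%) and 5 between AKT2 KO and AKT1 KO (Pfkp, Pfkfb1, Tpi1, Eno3 and Gbe1; 6.19%). Fitting only the groups compared called 1 in AKT2 KO, also Gys1. The cause of these differences was not tested.

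When each heart was left out in turn, 24 to 28 members were called for DKO against control, 23 to 26 against AKT1 KO, 23 to 27 against AKT2 KO and 16 to 21 for the departure from additivity. Between AKT2 KO and AKT1 KO the range was 0 to 1, with Pfkfb1 called without DKO replicate 3, and it was 0 for each single knockout against control. For the 11 paralog pairs in DKO hearts 8 to 10 passed, Eno1 minus Eno3 being unable to pass without a control heart or a DKO heart that measured it. In either single knockout 0 passed, where only a shift of most of the 11 pairs at once could have passed. Quantile normalization turned the sign of Hk1 against AKT2 KO (-0.27), of Eno1 in DKO against control (-0.099), against AKT1 KO (-0.32) and in the departure from additivity (-0.35), and of Pgk1 (-0.31) and Ldha (-0.28) in that departure. Among members not called in DKO against control, it also turned Hk1 (-0.23), Gpi1 (-0.063), Aldoa (0.11) and Taldo1 (-0.17), none of them called. The cause was not tested.

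With the replicate block 25 members were called in DKO against control hearts, 10 higher and 15 lower, and 0 in AKT1 KO or AKT2 KO. In the departure from additivity the block lost Gapdh and gained Tkt (limma adjusted p = 0.0374). For the paralog pairs, swaps within 4 pairs of same-numbered hearts cannot give a p under 0.125, so that this paired test was not run. Aldoc was well above background on 14 of 16 arrays, and each other member on all 16.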
